A study of Mus musculus with 6 samples.

Results

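Respiratory complex I genes were taken as every gene whose symbol starts with Nduf in the expression files of the 6 libraries, which gave 45 of 23183 listed genes. Of these, 38 carried the symbols of structural subunits (Ndufa, Ndufb, Ndufc, Ndufs and Ndufv) and 7 those of assembly factors (Ndufaf). The study sequenced poly(A)-enriched RNA of sorted double positive (DP) thymocytes, the immature T cells that carry both CD4 and CD8. The 3 WT libraries came from *Nsrp1* f/f mice and the 3 NSrp70-cKO libraries from *Nsrp1* f/f CD4Cre mice, all C57BL/6 and 6 weeks old. Both genotypes therefore carry the floxed alleles and only the cKO mice carry the Cre transgene, whose expression follows *Cd4* regulatory sequences and so removes *Nsrp1* in developing T cells rather than in the whole animal. Nothing in the labels says that the 3 libraries of a genotype came from separate animals, so the p-values measure the spread between libraries, which may be technical.

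Complex I is the entry point of the mitochondrial respiratory chain. It takes electrons from NADH, passes them through a flavin and a row of iron-sulphur clusters in its matrix arm to ubiquinone, and pumps protons through its membrane arm. Core subunits carry out this chemistry, accessory subunits surround and stabilise them, and assembly factors help to build the complex without staying in it. Thymocytes change their use of mitochondria as they pass between quiescent and dividing stages.

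Since nuclear respiratory factor 1 (NRF1) and YY1 are known regulators of nuclear genes for mitochondrial proteins, the promoters of the complex I genes were searched for their letters. RefSeq promoters on GRCm38.p6, from 250 bases before to 50 bases after the transcription start, were at hand for 39 of the 45 genes (41 promoters). Those of the other members, among them *Ndufa2*, *Ndufa4l2*, *Ndufaf6*, *Ndufb9* and *Ndufs1*, were not analysed here. The NRF1 letters GCGCATGCG, searched on both strands, stood in 4 of the 41 promoters (9.76%) against 1.75% of all 32851 promoters. They are nearly their own complement, and in *Ndufa11*, *Ndufaf4* and *Ndufaf5* a match on one strand overlaps a match on the other, whereas *Ndufa8* has a match on the opposite strand only. Both classes were among the 4, with *Ndufa11* and *Ndufa8* as structural subunits and *Ndufaf4* and *Ndufaf5* as assembly factors, and each is shown with the matching letters in capitals, 5′ to 3′ on the strand of the gene.
Ndufa11, chr17:56717692-56717720, plus strand: cctgcactgcGCGCATGCGcgcacgcctt
Ndufa8, chr2:36049329-36049357, minus strand: tcgctggagaCGCATGCGCagatggtacc
Ndufaf4, chr4:24897960-24897988, plus strand: ccagatgtctGCGCATGCGcctgtgcgga
Ndufaf5, chr2:140170652-140170680, plus strand: agtcccgttgGCGCATGCGcctaatagaa

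The YY1 letters AAGATGGCG, also searched on both strands, stood in 5 promoters (12.2%) against 1.40% of all promoters. All 5 belong to structural subunits, and in all 5 the letters lie on the strand of the gene, between 22 and 35 bases after the transcription start. Bases after the transcription start are also part of the RNA, and the letters contain the triplet ATG. Whether that triplet is the start of translation in these genes was not tested. The 5 matches are shown in the same way to make their shared position visible.
Ndufc1, chr3:51408915-51408943, minus strand: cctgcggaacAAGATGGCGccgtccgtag
Ndufs7, chr10:80249463-80249491, plus strand: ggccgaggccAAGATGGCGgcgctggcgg
Ndufa9, chr6:126849097-126849125, minus strand: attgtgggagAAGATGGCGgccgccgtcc
Ndufs6, chr13:73328433-73328459, minus strand: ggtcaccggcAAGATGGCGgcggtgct
Ndufs4, chr13:114388045-114388069, minus strand: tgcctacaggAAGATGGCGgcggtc

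The ETS letters CCGGAAGT stood in 1 promoter, that of *Ndufs3* (2.44% against 3.89% of all promoters), and the TATA letters TATAAA in 5 (12.2% against 13.6%). A match describes letters in the window and is not a measured binding site.

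The values are FPKM, the fragments counted per length of transcript and per library depth by the authors. This scaling did not remove a relation between length and the change in cKO. The median log2 fold change of tested genes was 0.86 under 500 nucleotides and 0.0 between 2000 and 4000. How well levels compare between genes of different length was not tested. Low values fell on steps that gave an estimated depth of 20.7 to 20.9 M fragments (M, mega) for the WT libraries and 13.2 to 20.7 M for the cKO libraries, with cKO 1 the lowest. The targeted gene, listed under the older symbol *Ccdc55*, was lower in all 3 cKO libraries (log2 fold change -0.34, standard error 0.077, adjusted p = 0.00675 from limma), a p that became 0.184 when the WT libraries were counted as 1 sample. The mean FPKM of *Ccdc55* was 20.7 in WT and 16.2 in cKO, so much of its signal remained in the cKO libraries. The variance between WT libraries was 1.56 to 1.70 times, and that between cKO libraries 29.8 to 63.0 times, what counting alone gives, so WT is given by its libraries or their mean. *Xist* was high and 4 genes of chromosome Y were at 0 in all WT libraries, and the cKO libraries showed the reverse, so sex and genotype cannot be told apart. DP markers were abundant in both genotypes (summed FPKM 5110 to 5200 in WT and 7050 to 9200 in cKO, 7 of 10 called higher and 2 lower). Of all tested genes, 35.8% were called higher and 29.8% lower. In bulk libraries such as these, more cells of one kind and more RNA per cell cannot be told apart.

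The question was whether the genes of complex I differed in level between WT and NSrp70-cKO DP thymocytes, and whether structural subunits and assembly factors did so alike. Of the 38 structural genes, 37 passed the filter on low values, and all 37 of these were called higher in cKO and none lower (adjusted p under 0.05, from 0.000172 for *Ndufc2* to 0.0143 for *Ndufb6*). Among all 10326 genes tested, 35.8% were called higher and 29.8% lower. The count of 37 fell to 14 when WT was treated as a single sample and to 21, with *Ndufs3* called lower, when every library was scaled to the same FPKM total. In each of the 37 all cKO libraries lay above all WT libraries, which 39.2% of all tested genes did. The median log2 fold change was 0.87, between 0.32 and 1.60, where the median of all tested genes was 0.04. Every tested member passed the filter in both genotypes, since the lowest value of any tested member in any library was 1.51, for *Ndufaf6*. As ratios of mean FPKM the changes of the structural genes ran from 1.26-fold to 3.11-fold. A log2 fold change of 1 or more was reached by 9 structural genes and 1 assembly factor, against 3.96% of all tested genes. Of the 7 assembly factors, 6 were called higher and none lower, with a median log2 fold change of 0.56 (0.02 to 1.30).

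**Figure D1:**
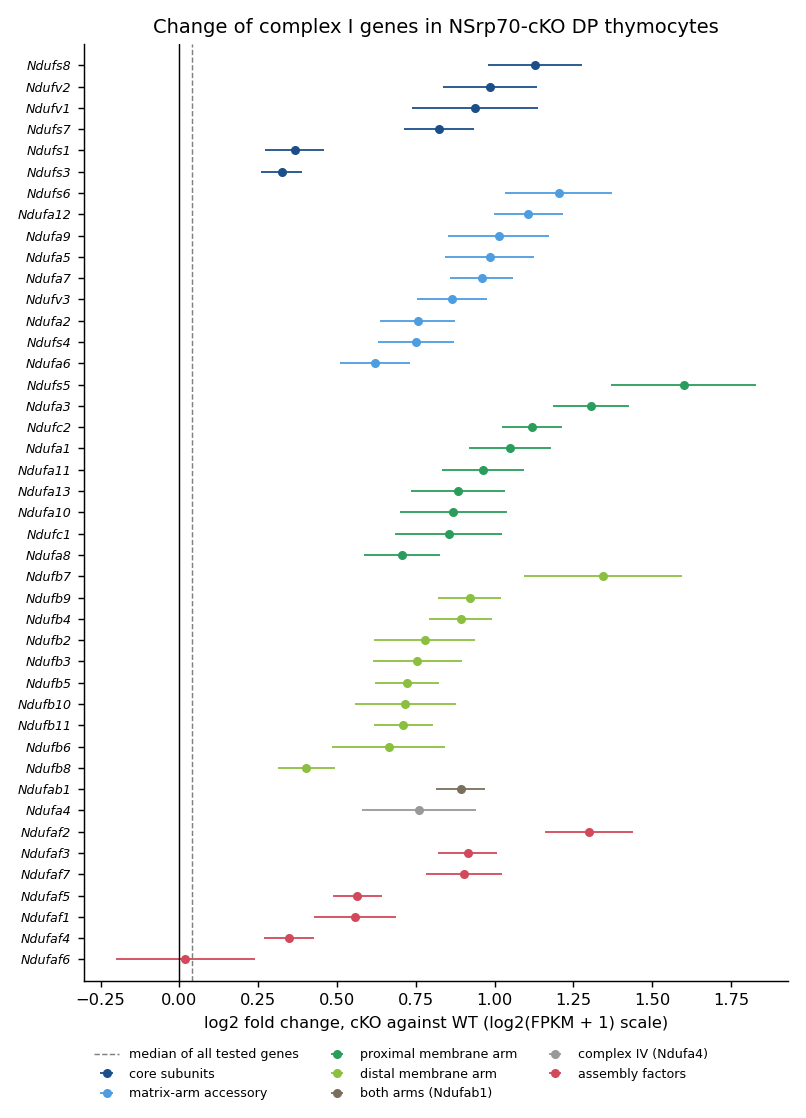
Log2 fold change of the tested complex I genes with 1 left out (x axis, on the log2(FPKM + 1) scale, cKO against WT), grouped by the role of its product; points are limma estimates from 3 WT and 3 cKO libraries, bars are standard errors, and the dashed line is the median of all tested genes, 0.04. All structural genes lie to the right of 0, from 0.32 for *Ndufs3* to 1.60 for *Ndufs5*, and *Ndufaf6* is the one gene whose bar crosses 0.

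The core subunits of the NADH-binding tip are *Ndufv1*, which holds the flavin, and the iron-sulphur proteins *Ndufv2* and *Ndufs1*. *Ndufv1* had an FPKM of 50.7, 51.2 and 54.0 in WT 1, 2 and 3 and of 118, 71.1 and 121 in cKO 1, 2 and 3 (log2 fold change 0.94, standard error 0.20, adjusted p = 0.00511). *Ndufv2* had 70.6, 70.7 and 73.9 in WT and 159, 111 and 166 in cKO (log2 fold change 0.99, standard error 0.15, adjusted p = 0.00137). Both were lowest of the cKO libraries in cKO 2, yet without overlap with WT. *Ndufs1*, which carries several clusters of the electron path, rose less, from 33.5, 34.4 and 33.3 to 38.5, 50.1 and 43.5 (log2 fold change 0.37, standard error 0.095, adjusted p = 0.0118), and here cKO 2 was the highest library.

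The core subunits nearer to ubiquinone also rose, over a wide range. *Ndufs7*, which carries the last iron-sulphur cluster before ubiquinone, went from 59.8, 58.9 and 59.7 to 119, 90.7 and 111 (log2 fold change 0.82). The iron-sulphur protein *Ndufs8* had the largest change of the core subunits, from 119, 120 and 125 to 311, 208 and 293 (log2 fold change 1.13, standard error 0.15, adjusted p = 0.000825). *Ndufs3*, a core subunit without a cofactor, had the smallest change of all structural genes tested, from 85.8, 81.7 and 83.1 to 106, 102 and 107 (log2 fold change 0.32, standard error 0.064, adjusted p = 0.00364), without overlap of the groups. This call did not hold under other scalings, with 0.09 (adjusted p = 0.268) after the length and GC correction and a call of lower, -0.23 (adjusted p = 0.0266), with the same FPKM total.

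**Figure D2:**
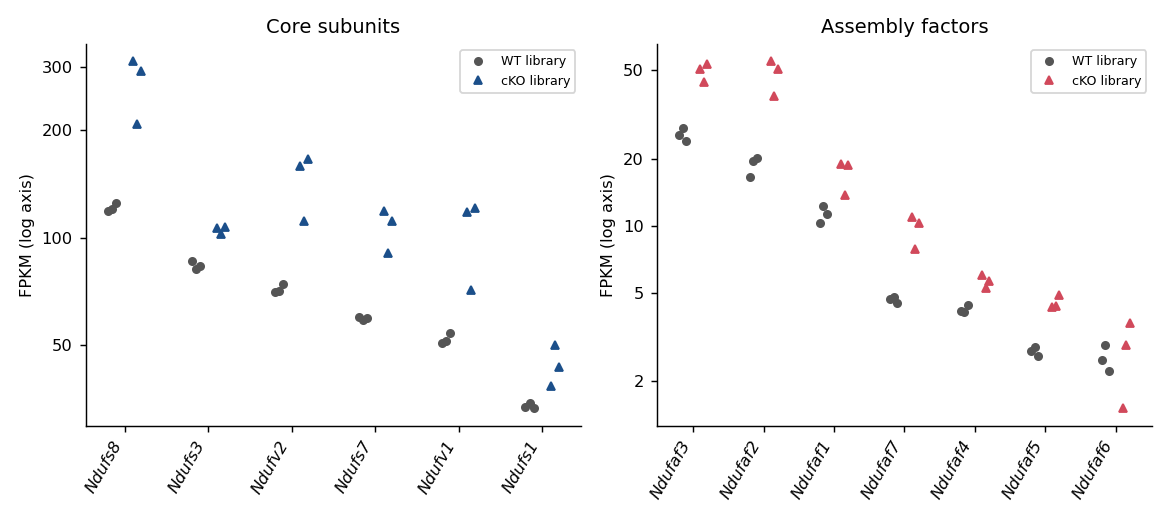
FPKM (y axes, log scale) of 6 core subunit genes, left, and the 7 assembly factor genes, right, ordered by WT mean; grey circles are the 3 WT libraries and coloured triangles the 3 cKO libraries, each in the order 1, 2, 3 from left to right. The groups overlap for *Ndufaf6* and for no other gene shown.

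The accessory subunits of the matrix arm were all called higher (9 of 9, median log2 fold change 0.96), where 35.8% of all tested genes were. After the length and GC correction 6 of the 9 were called higher, against 31.8% of all tested genes. With the same FPKM total 7 were, against 8.74%. *Ndufs6* had the largest change among the 9 genes, 1.20, from a mean FPKM of 162 in WT to 383 ± 97.3 in cKO (SD, n = 3 libraries). *Ndufa12* followed with 1.11, and *Ndufa9* with 1.01. *Ndufa6*, a small protein that binds the acyl carrier protein, had the smallest change of these accessory subunits. It went from 227, 221 and 222 in WT to 314, 323 and 403 in cKO (log2 fold change 0.62, standard error 0.11, adjusted p = 0.0024). The acyl carrier protein itself, *Ndufab1*, which sits in both arms and also serves mitochondrial fatty acid synthesis, had a log2 fold change of 0.89.

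In the proximal membrane arm 9 of 9 genes were called higher (median log2 fold change 0.96), where 35.8% of all tested genes were. The count was 7 after the length and GC correction, against 31.8% of all tested genes. With the same FPKM total it was 6, against 8.74%. This arm included the gene with the largest change. *Ndufs5*, an accessory subunit on the side of the intermembrane space, lies at chr4:123712710-123718202 on the minus strand of GRCm38. Its FPKM was 14.3, 24.9 and 22.0 in WT and 47.8, 76.0 and 67.1 in cKO (log2 fold change 1.60, standard error 0.23, adjusted p = 0.00103). The lowest cKO library still exceeded the highest WT library, although the WT libraries of this gene spread by 27.0% of their mean, where the median over the structural genes was 3.01%. *Ndufa3*, a short membrane protein, was the most abundant member, with 569, 577 and 569 in WT and 1370, 1280 and 1610 in cKO (log2 fold change 1.31, standard error 0.12, adjusted p = 0.000214). *Ndufa11*, a subunit of the membrane arm that contacts complex III in supercomplexes, had the lowest level of the structural genes tested, with 19.4, 17.6 and 17.5 in WT and 42.1, 29.7 and 38.4 in cKO (log2 fold change 0.96). As ratios of mean FPKM these genes changed 3.11-fold (*Ndufs5*), 2.49-fold (*Ndufa3*) and 2.02-fold (*Ndufa11*).

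The distal membrane arm, formed around the proton-pumping end by the Ndufb subunits, was called higher in 10 of 10 genes. Of all tested genes 35.8% were. The median log2 fold change of the 10 was 0.74. The count fell to 6 after the length and GC correction, against 31.8% of all tested genes. With the same FPKM total it fell to 3, against 8.74%. *Ndufb7*, another subunit on the intermembrane space side, had 204, 203 and 199 in WT and 678, 334 and 602 in cKO (log2 fold change 1.34, standard error 0.25, adjusted p = 0.00301). Its cKO libraries were spread widely, with cKO 2 well below the others. *Ndufb8*, a single-pass membrane subunit, had 114, 110 and 118 in WT and 153, 136 and 164 in cKO (log2 fold change 0.40, standard error 0.09, adjusted p = 0.00631). The other Ndufb genes lay between these, from 0.66 for *Ndufb6* to 0.92 for *Ndufb9*.

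*Ndufa4* and *Ndufa4l2* bear complex I symbols but are not counted as complex I subunits today, *Ndufa4* being a subunit of complex IV. *Ndufa4* had 283, 292 and 304 in WT and 370, 559 and 595 in cKO (log2 fold change 0.76, standard error 0.18, adjusted p = 0.00741). *Ndufa4l2*, its relative known as a hypoxia-responsive gene, was the one structural gene below the filter, with 0, 0.259 and 0.0645 in WT and listed at 0 in all cKO libraries. *Ndufa1* and *Ndufb11* are X-linked, and without chromosomes X and Y all of the 35 structural genes that were left were called higher. With these chromosomes kept, 35.8% of all tested genes were called higher.

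The assembly factors were expressed at lower levels, with a median WT FPKM of 4.67 against 110 for the structural genes. *Ndufaf2*, a relative of *Ndufa12* that occupies its place in an assembly intermediate, had 16.5, 19.5 and 20.1 in WT and 54.8, 38.4 and 50.4 in cKO (log2 fold change 1.30, standard error 0.14, adjusted p = 0.000402). Its change and that of *Ndufa12*, 1.11, were among the larger ones of their classes. *Ndufaf3* and *Ndufaf4*, which act together on the ubiquinone-binding part, changed by different amounts. *Ndufaf3* had 25.5, 27.5 and 23.9 in WT and 50.6, 44.2 and 53.3 in cKO (log2 fold change 0.91, standard error 0.093, adjusted p = 0.0003). *Ndufaf4* had 4.12, 4.09 and 4.42 in WT and 6.03, 5.23 and 5.66 in cKO (log2 fold change 0.35, standard error 0.079, adjusted p = 0.00697). The difference between these genes was not tested.

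Some assembly factors modify a core subunit. *Ndufaf7*, a methyltransferase, had 4.70, 4.79 and 4.50 in WT and 10.9, 7.88 and 10.3 in cKO (log2 fold change 0.90, standard error 0.12, adjusted p = 0.000742). *Ndufaf5*, which hydroxylates *Ndufs7*, had 2.73, 2.85 and 2.60 in WT and 4.32, 4.37 and 4.86 in cKO (log2 fold change 0.56, standard error 0.078, adjusted p = 0.000866). *Ndufaf1*, part of the machinery that builds the membrane arm, had 10.3, 12.2 and 11.3 in WT and 18.9, 13.8 and 18.8 in cKO (log2 fold change 0.56, standard error 0.13, adjusted p = 0.00811). In all of these the lowest cKO library exceeded the highest WT library. *Ndufaf6* was the one tested member not called, with 2.49, 2.90 and 2.22 in WT and 1.51, 2.91 and 3.66 in cKO (log2 fold change 0.02, standard error 0.22, adjusted p = 0.944). Its lowest value, in cKO 1, rests on an estimated 18 fragments, and its cKO libraries lay on both sides of the WT libraries. After the length and GC correction *Ndufaf1* had 0.19 (adjusted p = 0.26 from limma) and *Ndufaf5* 0.14 (adjusted p = 0.225), so neither was called. With the same FPKM total they had 0.03 (adjusted p = 0.791) and 0.13 (adjusted p = 0.251). *Ndufaf7* was called higher in both settings.

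The median of the structural genes exceeded that of the assembly factors by 0.30 on the log2 scale, and in cKO 1, 2 and 3 taken singly by 0.12, 0.15 and 0.37. As ratios of mean FPKM, which no pseudocount draws toward 1, the medians were 1.87-fold and 1.66-fold. This order was not stable. It turned to -0.03 when the filter was raised to an FPKM of 5 and to -0.25 under quantile normalization, and no order of the classes is drawn from it.

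The cKO libraries differed among themselves. Among the 37 structural genes, cKO 3 was the highest cKO library in 30 and the lowest in 0, whereas cKO 2 was the lowest in 23 and cKO 1 in 14. The medians over structural genes, as log2 difference from the WT mean, were 0.82, 0.67 and 1.07 in cKO 1, 2 and 3, and those over assembly factors were 0.71, 0.52 and 0.70. All 37 structural genes lay above the WT mean in each cKO library. Of all 10326 tested genes, 5337, 5573 and 5440 did so in cKO 1, 2 and 3. The median of the core subunits departed from the order of the accessory groups, with 0.99 in cKO 1 and 0.89 in cKO 3. Single core genes did not all follow it. *Ndufs7* and *Ndufs8* were higher in cKO 1 than in cKO 3, whereas *Ndufs1*, *Ndufs3*, *Ndufv1* and *Ndufv2* were higher in cKO 3.

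**Figure D3:**
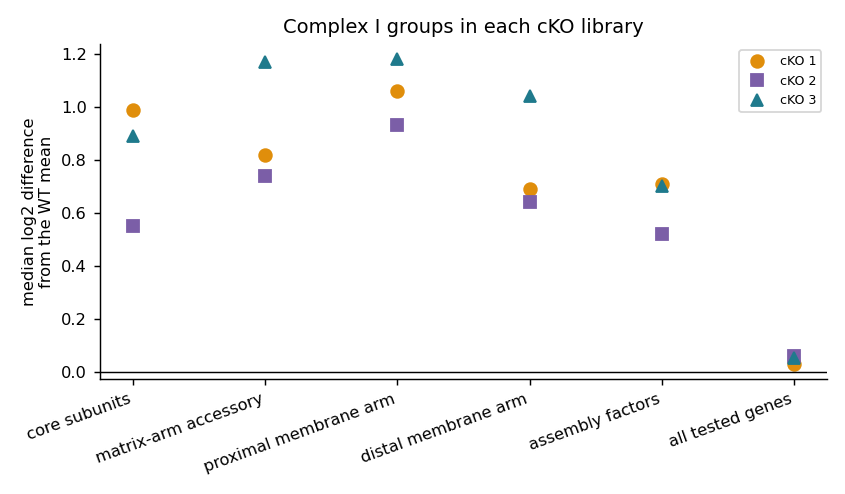
Median log2 difference from the WT mean (y axis) of each group of complex I genes and of all tested genes, in cKO 1 (circles), cKO 2 (squares) and cKO 3 (triangles). Each group of complex I genes lies above all tested genes in every cKO library. The median is highest in cKO 3 for the 3 accessory groups and in cKO 1 for the core subunits (0.99 against 0.89). Single core genes do not all follow that order.

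The ranking of the members by level was shared by the genotypes. Across the 44 tested members, log2 mean FPKM in WT and in cKO had a Pearson's r of 0.988 and a Spearman's rho of 0.977, a description across genes measured in the same libraries. Transcript length moved with the changes. Across the 44 members the log2 fold change and the median transcript length had an r of -0.411 (with log2 length) and a rho of -0.373, and across 10245 tested genes with a known length -0.32 and -0.308. Structural genes had a median length of 782 nucleotides and assembly factors of 1451. Among all tested genes shorter than 500 nucleotides the median log2 fold change was 0.86, close to the 0.91 of the 4 members in that range. Between 500 and 1000 nucleotides, where 22 members lie, it was 0.49 against 0.91 for the members, and between 1000 and 2000 nucleotides 0.19 against 0.69 for 12 members. Between 2000 and 4000 nucleotides it was 0.0, against 0.82 for 6 members.

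**Figure D4:**
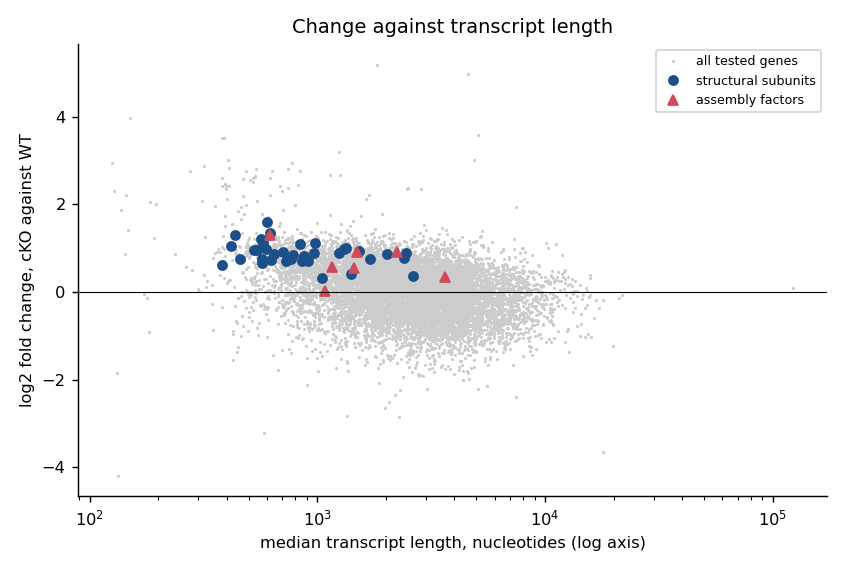
Log2 fold change, cKO against WT (y axis), against median transcript length in nucleotides (x axis, log scale) for all tested genes with a known length (grey), structural subunits (circles) and assembly factors (triangles), 1 member left out. Members between 1000 and 2000 nucleotides have a median of 0.69 where all genes of that length have 0.19, and the 4 members under 500 nucleotides lie near the other genes of their length.

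With length and GC content corrected in each library, the structural median was 0.51 and the assembly factor median 0.19. Then 26 of the 37 structural genes and 3 of the 7 assembly factors were called higher, against 31.8% of all tested genes. *Ndufb7* (1.22), *Ndufa13* (1.11), *Ndufs8* (1.10), *Ndufv1* (1.07), *Ndufs5* (1.06) and *Ndufaf3* (1.02) then had log2 fold changes above 1, whereas *Ndufa4* (-0.21), *Ndufa6* (-0.14) and *Ndufb6* (-0.04) turned to the other sign without passing the test. Under quantile normalization 29 structural genes and 6 assembly factors were called higher against 33.7%. The FPKM values summed to 521296 to 531517 in the WT libraries and to 701396 to 850548 in the cKO libraries. With every library scaled to the same total, which moved the median of all tested genes to -0.45, 21 structural genes were called higher and 1, *Ndufs3*, lower, and 3 assembly factors were called higher, against 8.74% of all tested genes. With the WT libraries counted as 1 sample, 14 structural genes and 3 assembly factors were called higher, against 7.16%.

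**Figure D5:**
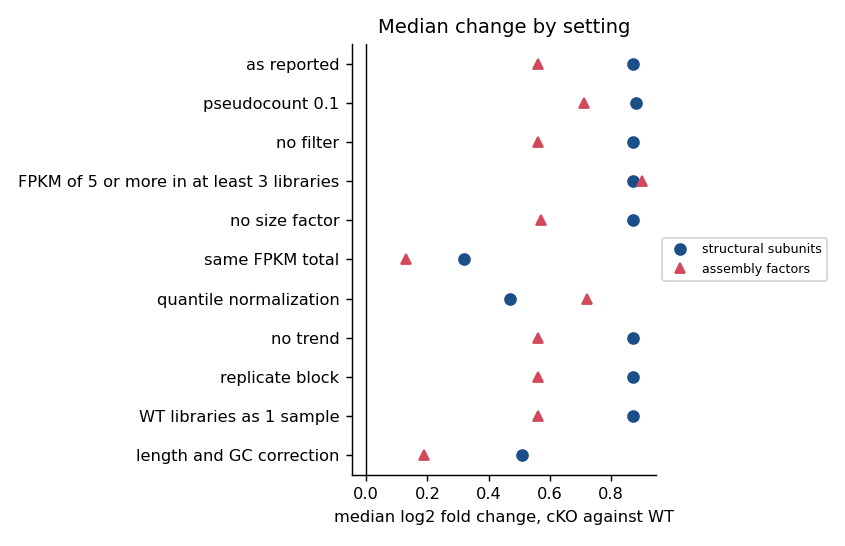
Median log2 fold change, cKO against WT (x axis), of the structural subunits (circles) and assembly factors (triangles) as reported and under the other settings shown. All medians lie above 0, between 0.13 and 0.90, and the triangle lies to the right of the circle under the stricter filter and under quantile normalization.

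Assembly factors without the Nduf prefix were examined from a list of 13, of which 12 were listed and tested. Of these, 9 were called higher and none lower, where 35.8% of all tested genes were called higher, with a median log2 fold change of 0.45. With the WT libraries counted as 1 sample, *Tmem126b* alone of the 12 passed (adjusted p = 0.0479). *Tmem126b*, a partner of *Ndufaf1* in building the membrane arm, had 7.24, 7.84 and 7.86 in WT and 13.5, 11.7 and 13.5 in cKO (log2 fold change 0.68, adjusted p = 0.000526). *Ecsit*, of the same machinery, had 10.1, 11.1 and 10.3 in WT and 20.7, 9.97 and 14.5 in cKO (log2 fold change 0.43, adjusted p = 0.135), with overlapping groups. The remaining uncalled genes were *Tmem70* (0.19, adjusted p = 0.0676) and *Tmem186* (0.07, adjusted p = 0.499). *Ndufaf8* stands in the files under an older symbol, 1810043H04Rik, and so falls outside the rule. It had 39.2, 36.9 and 33.3 in WT and 48.0, 68.1 and 68.7 in cKO (log2 fold change 0.72, adjusted p = 0.00388, or 0.0791 with WT as 1 sample). No gene was listed under the symbols *mt-Nd1* to *mt-Nd6* or *mt-Nd4l*, so the subunits encoded by the mitochondrial genome could not be examined.

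Other measures moved with these changes. All 10 of 10 cell cycle genes were called higher (median log2 fold change 1.09, summed FPKM 1030 to 1040 in WT and 2120 to 2390 in cKO). For this and the marker counts that follow, 35.8% of all tested genes were called higher and 29.8% lower. Of 6 markers of mature single positive thymocytes, 5 were called lower and 1 higher (summed FPKM 148 to 150 in WT and 132 to 146 in cKO), and of 3 double negative markers 1 was called lower (sums 9.0 to 9.75 and 6.73 to 8.8). Of 5 erythroid genes, all 3 tested were higher, with a sum of 2.09 to 2.97 in WT and 15.3 to 31.5 in cKO. B cell markers summed to 1.19 to 1.23 in WT and 0.984 to 1.81 in cKO, and myeloid markers to 3.24 to 4.15 and 3.12 to 4.88. Thymic epithelial markers summed to 5.46 to 6.8 and 4.1 to 6.91, with *Foxn1* listed at 0 in every library. The part of any of these in the complex I values was not tested. *Ndufa12*, *Ndufb4*, *Ndufb9*, *Ndufs3* and *Ndufs5* share between 13.9% and 33.4% of their 100-base windows with another annotated gene. Their values could include reads of that gene or lose some to it.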

How the data were processed

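Poly(A)-enriched, strand-specific libraries of sorted DP thymocytes were sequenced by the authors, mapped to mm10 with Tophat and summarised with Cufflinks as FPKM, which the authors deposited as 1 value per gene symbol and library. Tool versions and annotation are not given in the sources used here. Of 23183 symbols, 22110 were matched in GENCODE (GRCm38) and 663 through RefSeq synonyms. Depth was estimated from 2614 single-transcript genes, assuming fragments of 200 nucleotides. After median-of-ratios size factors, genes that reached an FPKM of 1 in at least 3 libraries (10326 genes) were fitted on the log2(FPKM + 1) scale by genotype with limma 3.58.1 (lmFit, eBayes with trend) in R 4.3.3, with Benjamini-Hochberg adjustment over all tested genes at 0.05. Fold changes on this scale understate the change of low genes. The length and GC correction fitted natural splines with 5 degrees of freedom to each library. Python 3.11.15 with pandas 2.3.3 was used for summaries.

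The members, gene lists and tests were chosen with earlier results of these data known. Values in every library are given for core subunits, Ndufaf genes, *Ndufs5*, *Ndufa4*, *Ndufa4l2*, the 3 highest and 3 lowest structural genes by WT level, the 3 largest and 3 smallest changes, and members not called higher or below the filter. 1 member that enters the counts and medians is not reported here by name or value. Leaving out *Ndufa4* and *Ndufa4l2*, or members sharing over 10% of their windows, was added after seeing the data. DESeq2, which the authors ran on counts, was not used, because FPKM are not counts.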

Additional observations from a re-analysis of the deposited data

How the results depend on the processing

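The number of fragments behind a member is estimated, at least 119 per library for tested structural genes and 18 for assembly factors, and 3 libraries a genotype limit every p. The structural median was 0.47 under quantile normalization, 0.51 with the length and GC correction and 0.32 with the same FPKM total. The assembly factor median was 0.71 with a pseudocount of 0.1, 0.90 with the stricter filter on FPKM of 5, 0.72 under quantile normalization, 0.19 with the length and GC correction and 0.13 with the same FPKM total. The difference of the medians was -0.03 with the stricter filter, which left 5 assembly factors, and -0.25 under quantile normalization, and the cause of the latter was not tested. Structural genes called higher numbered 14 with the WT libraries as 1 sample and 21 with the same FPKM total, where 1 was called lower, and assembly factors 3 in each of these settings and with the correction. *Nsrp1* kept -0.34 with the WT libraries as 1 sample (adjusted p = 0.184). Signs turned for *Ndufa4* (-0.21), *Ndufa6* (-0.14) and *Ndufb6* (-0.04) with the correction and for *Ndufaf4* (-0.12), *Ndufb8* (-0.15), *Ndufs1* (-0.18) and *Ndufs3* (-0.23, adjusted p = 0.0266) with the same FPKM total. *Ndufaf6* had -0.38 in both settings. Without 1 library at a time, the structural median ranged from 0.79 to 0.95, the assembly factor median from 0.52 to 0.71 (0.71 without cKO replicate 2) and their difference from 0.24 to 0.33, with 37 and 6 genes called higher each time. Same-numbered WT and cKO libraries had correlations of deviations of -0.0223, 0.0385 and 0.0309. These values cannot decide whether the numbers pair the libraries. The variance between WT libraries was only 1.56 to 1.70 times that of counting, which leaves little else to correlate. The replicate block gave 37 and 6 genes called higher and changed no call. Leaving out *Ndufa4* and *Ndufa4l2*, or members that share windows with other genes, changed no direction.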

Other observations

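Of 13 listed regulators of mitochondrial gene expression, 12 were tested, and 4 were called higher and 6 lower, with a median log2 fold change of -0.18, where 35.8% of all tested genes were called higher and 29.8% lower. *Nrf1*, whose protein binds the letters searched above, had an FPKM of 38.3, 38.5 and 37.9 in WT and 45.6, 46.9 and 47.1 in cKO (log2 fold change 0.27, standard error 0.056, adjusted p = 0.00414 from limma). *Yy1* moved the other way, from 73.8, 72.3 and 72.0 to 53.8, 53.0 and 55.3 (log2 fold change -0.42, standard error 0.059, adjusted p = 0.000893). *Gabpa* and *Gabpb1*, the subunits of an ETS factor, had log2 fold changes of 0.32 and 0.25. The mitochondrial rRNA methyltransferase *Tfb1m* had 0.72.

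Several factors known for driving mitochondrial programmes were called lower. *Esrra*, an orphan nuclear receptor, had 17.2, 15.8 and 17.2 in WT and 6.83, 10.5 and 7.92 in cKO (log2 fold change -0.93, standard error 0.14, adjusted p = 0.00107). *Pprc1* had -0.64, *Polrmt*, the mitochondrial RNA polymerase, -0.60, *Myc* -0.61 and *Ppargc1b* -0.52. *Tfam* (0.17, adjusted p = 0.0887) and *Tfb2m* (0.06, adjusted p = 0.68) did not pass the test, and *Ppargc1a* was below the filter in both genotypes. With the WT libraries counted as 1 sample, *Esrra* alone of these 12 passed (adjusted p = 0.0472).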
